A study of Homo sapiens with 12 samples.

Results

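Glycolysis and the genes that respond to low oxygen were followed as a set of 37 human genes: 13 glycolytic enzyme genes that act after hexokinase, 3 regulators of phosphofructokinase, 5 genes of lactate and pyruvate handling, 4 genes of the oxygen-sensing machinery and 12 further targets of the hypoxia-inducible factors. The members were chosen by name from textbook membership of the pathway, with earlier results of these data known. Their Ensembl identifiers were all found among the 60675 in the count table. Of those 60675, 30808 had a count in at least 1 library after rounding to whole numbers. SW1783, an established human astrocytoma cell line, was exposed for 24 h to a water extract of Aconitum carmichaeli Debeaux (ACD), a medicinal plant whose root holds aconitine alkaloids, and mRNA libraries were sequenced. The 4 groups of 3 libraries each were the vehicle (phosphate-buffered saline with 2% DMSO), the low dose of 20 µg/mL, the medium dose of 100 µg/mL and the high dose of 500 µg/mL. The extract stock was made up in the same saline with DMSO, and the 2% describes that solution, not the culture medium. All 4 groups shared the cell line and the culture in Leibovitz's L-15 medium without added CO2. That medium carries galactose in place of glucose as its sugar. The treatment text that accompanied the samples describes an extract of another material, Poria cocos, whereas titles and treatment labels name ACD, so the identity of the extract rests on those labels. SW1783 is 1 tumour line, and nothing stated whether the 3 libraries of a group came from separate cultures, so the p-values measure the spread between these libraries, which may be technical.

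Glycolysis splits sugar phosphates into pyruvate with a small gain of ATP, and lactate dehydrogenase then turns pyruvate into lactate, which leaves the cell through monocarboxylate transporters. Hypoxia-inducible factors (HIF) are pairs of an oxygen-regulated alpha subunit, encoded by HIF1A or EPAS1, and a stable beta subunit. With oxygen present, prolyl hydroxylases of the EGLN family mark the alpha subunit for destruction. When oxygen is scarce the pair binds a short DNA element whose core reads ACGTG or GCGTG and raises transcription of most glycolytic enzymes, of CA9 and of its own hydroxylases, and gliomas are known for high activity of this pathway. None of these samples was labelled as hypoxic.

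Total counts per library ran from 18863863 to 24200576, and the members together held 1.94% to 1.95% of all counts with vehicle, 1.84% to 1.92% with 20 µg/mL, 1.66% in each library with 100 µg/mL and 1.44% to 1.46% with 500 µg/mL. In the same libraries mitochondrial rRNA took 0.913% to 0.960%, 3.01% to 3.33%, 7.67% to 8.05% and 5.76% to 6.06% of counts from vehicle to the high dose. Its part in the members' shares was not tested. Of 10 astrocyte markers, GFAP, S100B and ALDH1L1 had at most 6 counts in any library and AQP4 was at 0 in all 12, while VIM, CD44, SOX9, SLC1A3 and NES were counted. The summed normalised counts of that list ran from 144288 to 152085 with vehicle and from 152314 to 154036 at the high dose. VIM and CD44 carried most of that sum. Of the 8 markers tested at the high dose, VIM rose and CD44, SOX9, NES and SLC1A3 fell, NES and SLC1A3 past 1.5-fold. The median log2 fold change of the 8 was -0.90. That median also drew on markers near the floor, as only 5 of the list averaged at least 10 normalised counts. The summed level of the 5 myeloid markers lay between 337.1 and 349.6 with vehicle and between 103 and 144 at the high dose. That of the 5 neuron markers lay between 1332 and 1394 with vehicle and between 1013 and 1086 at the high dose. For the 5 oligodendrocyte markers, of which MAG and SOX10 were at 0, the sums lay between 138.5 and 172 with vehicle and between 260.0 and 263 at the high dose. The 4 endothelial markers summed to between 575 and 604 with vehicle and between 616 and 675 at the high dose. A mean of at least 10 normalised counts was reached by 2 myeloid, 3 neuron, 1 oligodendrocyte and 1 endothelial marker. At the high dose 1 of 5 neuron markers tested rose and 1 fell. Of 2 myeloid markers tested 2 fell, of 2 oligodendrocyte markers 1 rose, and of 3 endothelial markers 0 were called. Of all genes tested, 23.9% rose and 22.6% fell. The part of these markers in the members' values was not tested. Since the libraries came from bulk RNA of 1 cell line, fewer cells expressing a marker and less RNA per cell cannot be told apart.

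For 5 members whose values moved in opposite directions at the high dose, the 250 bases before the transcription start are shown. These stretches were searched for the core motif that HIF binds. They come from RefSeq, GRCh38.p14, written in the direction of the gene, and capitals mark every ACGTG or GCGTG on either strand (CACGT and CACGC are their reverse complements, and CACGTG holds ACGTG on both strands). LDHA and PGK1 were lower at the high dose, DDIT4 and BHLHE40 were higher, and EGLN3 had the lowest fold change of all members.
LDHA (chr11:18394313-18394562, plus strand): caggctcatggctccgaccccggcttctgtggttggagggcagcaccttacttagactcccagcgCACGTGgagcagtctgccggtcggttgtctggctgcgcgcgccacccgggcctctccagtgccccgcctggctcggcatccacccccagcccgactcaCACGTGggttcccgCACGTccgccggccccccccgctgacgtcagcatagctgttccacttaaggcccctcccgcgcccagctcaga
PGK1 (chrX:78103998-78104247, plus strand): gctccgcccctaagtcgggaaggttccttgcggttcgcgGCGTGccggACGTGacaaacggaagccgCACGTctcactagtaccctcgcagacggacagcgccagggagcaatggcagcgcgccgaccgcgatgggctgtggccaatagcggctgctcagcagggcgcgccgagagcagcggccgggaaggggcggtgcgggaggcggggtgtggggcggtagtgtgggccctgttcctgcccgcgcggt
DDIT4 (chr10:72273674-72273923, plus strand): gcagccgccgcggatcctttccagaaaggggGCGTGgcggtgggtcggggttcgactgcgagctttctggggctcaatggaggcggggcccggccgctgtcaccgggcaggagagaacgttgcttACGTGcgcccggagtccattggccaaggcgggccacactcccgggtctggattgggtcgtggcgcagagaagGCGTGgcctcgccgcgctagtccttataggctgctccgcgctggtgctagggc
BHLHE40 (chr3:4979187-4979436, plus strand): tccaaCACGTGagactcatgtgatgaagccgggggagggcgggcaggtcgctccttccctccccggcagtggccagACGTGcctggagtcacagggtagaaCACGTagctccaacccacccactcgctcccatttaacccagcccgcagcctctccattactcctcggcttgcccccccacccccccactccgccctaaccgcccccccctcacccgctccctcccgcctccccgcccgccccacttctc
EGLN3 (chr14:33951075-33951324, minus strand): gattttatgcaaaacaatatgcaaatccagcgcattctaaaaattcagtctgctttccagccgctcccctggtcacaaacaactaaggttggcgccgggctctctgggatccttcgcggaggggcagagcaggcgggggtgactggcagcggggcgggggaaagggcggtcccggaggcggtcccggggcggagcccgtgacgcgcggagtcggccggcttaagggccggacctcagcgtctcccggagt

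LDHA holds 5 matches in 3 runs, PGK1 3, DDIT4 3 and BHLHE40 4 in 3 runs, and these 250 bases of EGLN3 hold 0. In windows of 300 bases that also took in the first 50 transcribed bases, 33 of the 37 members had at least 1 annotated start, with 56 windows in all. Either motif occurred in 71.4% of those 56 windows and in 48.4% of all 35116 windows of the same length. ACGTG occurred in 42.9% of member windows and 21.4% of all windows, and GCGTG in 41.1% and 36.5%. The windows of a gene with several starts can overlap, so the shares are a description. The members that carry the motif included genes that rose and genes that fell.

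At the high dose 21 of the 37 members fell and 12 rose at an adjusted p under 0.05 (two-sided Wald test of DESeq2, Benjamini-Hochberg over the 19453 genes tested), whereas 22.6% of all genes tested fell and 23.9% rose. With a fold change of more than 1.5 in addition, 10 members were lower and 5 were higher, against 9.57% and 8.66% of all genes tested. The median log2 fold change of the members was -0.28, beside -0.0096 over all genes tested. At the medium dose 20 members fell and 9 rose, with 14.5% and 15.1% of 14082 genes tested doing so, and the members' median was -0.13 beside -0.0005. Past the 1.5-fold limit were 1 lower and 2 higher members, against 1.48% and 2.34% of all genes tested. At the low dose 34 members were tested, 0 fell and 4 rose, with 1.24% and 2.05% of 9304 genes tested doing so. At an unadjusted p under 0.05, 2 members were lower there (PGAM1 and SLC16A1). By the same cut PFKM, PFKP, ENO2, HIF1A, EPAS1, DDIT4 and BHLHE40 were higher. The share of all genes at that unadjusted cut was not counted. The edgeR quasi-likelihood test with adjusted p also called 0 lower at the low dose. No member reached 1.5-fold at the low dose, where 0.118% of all genes tested did in either direction. Between the high and the medium dose 22 members were lower and 12 higher at the high dose, with 19.8% and 21.1% of 16467 genes tested. The 3 comparisons with vehicle share its 3 libraries. At the high dose the genes tested reached down to a mean of 1.72 normalised counts. The members' means ran from 65.4 (ANKRD37) to 68977 (GAPDH), and small changes are called more readily at high counts. The part of count level in the members' shares was not tested.

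**Figure D1:**
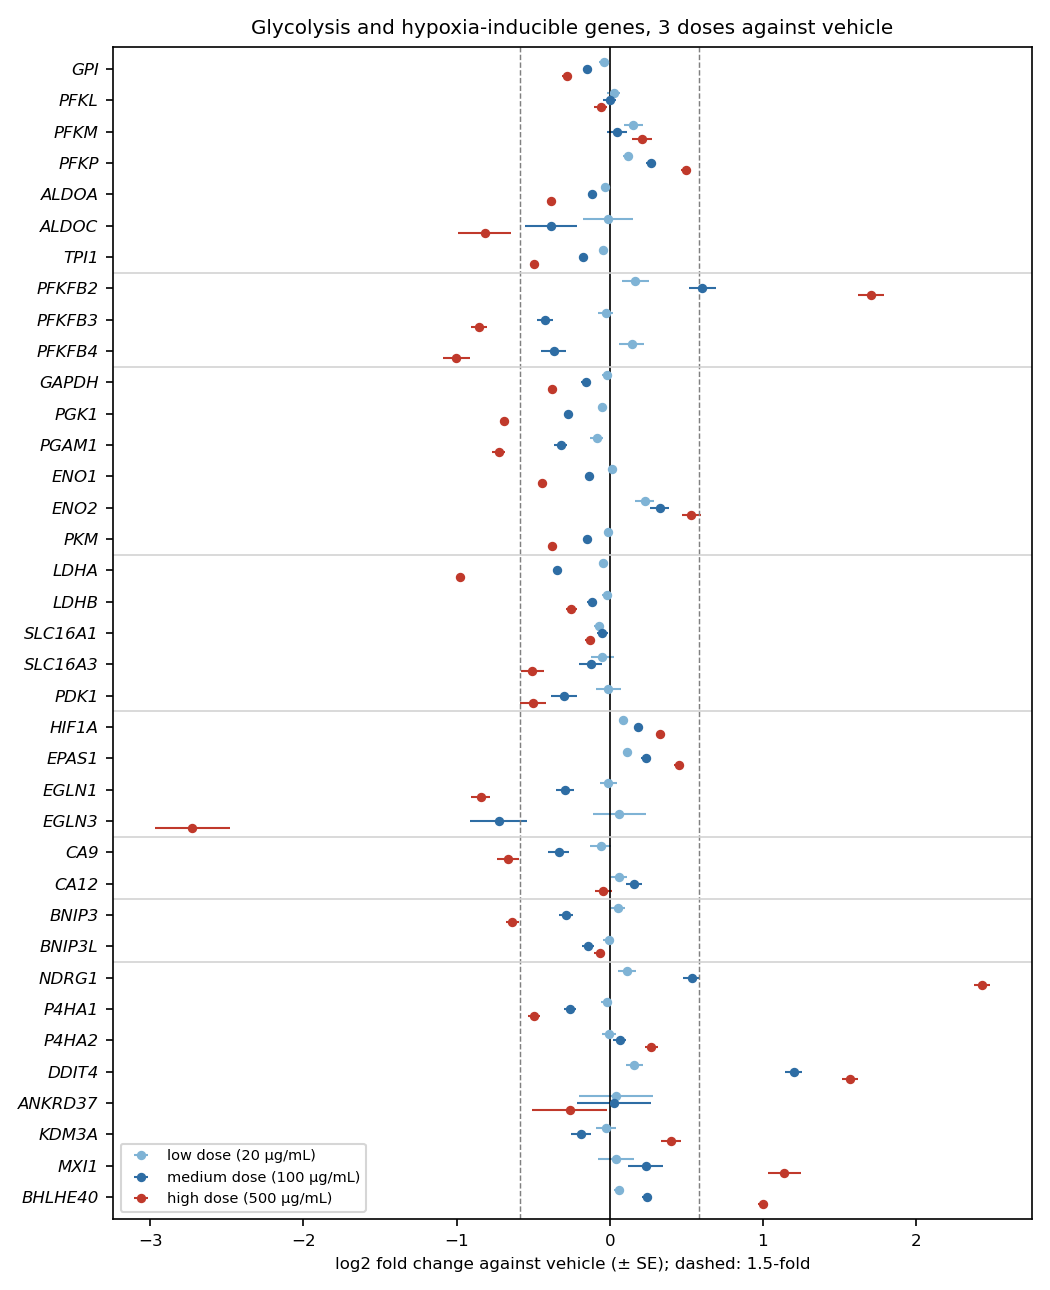
Log2 fold change against vehicle of the 37 members, with points for the low, medium and high dose, bars of 1 SE from the DESeq2 fit, and dashed lines at 1.5-fold; grey lines separate the roles. At the high dose EGLN3 lies lowest at -2.72 and NDRG1 highest at 2.43, while most glycolytic enzymes lie between 0 and -0.73.

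**Figure D2:**
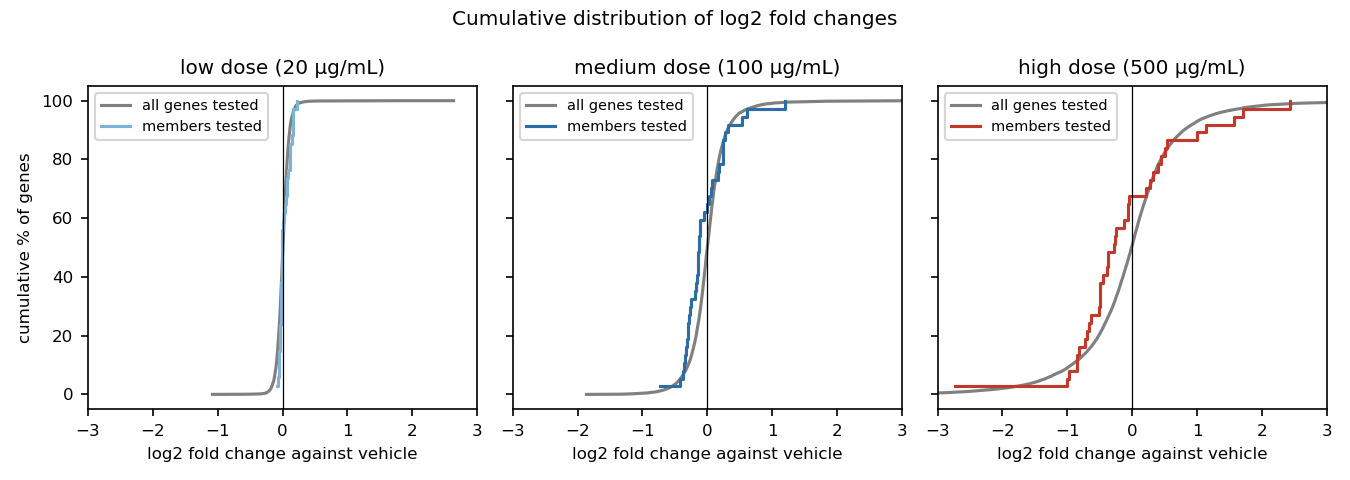
Cumulative share of genes (%) against log2 fold change for all genes tested (grey) and the members tested (coloured steps), 1 panel per dose; a few genes lie beyond the drawn range. At the high dose the members' median of -0.28 lies left of the median of -0.0096 over all genes tested, and at the low dose the steps follow the grey line.

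In upper glycolysis, which prepares and splits the sugar phosphates, 4 of 7 genes fell and 2 rose at the high dose. Among all genes tested, 22.6% fell and 23.9% rose at that dose. GPI, which interconverts glucose and fructose phosphate, had 7679 ± 108 normalised counts with vehicle (mean ± SD, n = 3) and 6321 ± 231 at the high dose, a log2 fold change of -0.28 (SE 0.0305, adjusted p = 2.31e-19). The aldolase ALDOA, which splits fructose bisphosphate, fell by 0.38 on the log2 scale (adjusted p = 1.11e-51), and TPI1, which interconverts the products of that split, fell by 0.49 (adjusted p = 7.62e-100). Both also fell at the medium dose, with log2 fold changes of -0.12 and -0.18. ALDOA shares 13.6% of its exon bases with a gene on the other strand, and whether counting used strand was not given.

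ALDOC (ENSG00000109107, chromosome 17, 28573115 to 28576948, minus strand), the aldolase found mostly in brain, had low counts. Its normalised counts were 142, 134 and 125 in the vehicle libraries, 127, 139 and 133 with 20 µg/mL, 99.7, 93.2 and 115 with 100 µg/mL and 86.8, 72.1 and 70.2 with 500 µg/mL. The 3 high-dose values lay below every vehicle and medium-dose value, the medium-dose values lay below every vehicle value, and the low-dose values lay among those of the vehicle. With 500 µg/mL the log2 fold change was -0.82 (SE 0.175, adjusted p = 1.18e-05). With 100 µg/mL it was -0.38 (SE 0.169, adjusted p = 0.0720), which missed the threshold. With 11.3% of its exon bases shared with a gene on the other strand, its counts are uncertain.

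Phosphofructokinase, the committed step of glycolysis, is encoded by PFKL, PFKM and PFKP, named for liver, muscle and platelet. PFKP rose at each dose, with means of 3934 ± 32.9, 4272 ± 79.0, 4744 ± 93.0 and 5561 ± 155 normalised counts from vehicle to the high dose and log2 fold changes of 0.12 (SE 0.0324, adjusted p = 0.0111), 0.27 (SE 0.0321, adjusted p = 1.16e-15) and 0.50 (SE 0.0318, adjusted p = 1.56e-54). The low-dose call of PFKP was lost without low replicate 2 or 3 or vehicle replicate 1 or 2, and with library sizes set by total counts. PFKM rose at the high dose, with a log2 fold change of 0.21 (SE 0.0643, adjusted p = 0.00323). That value was 0.0957 with an adjusted p of 0.214 when library sizes were set by total counts. PFKL had a log2 fold change of -0.060 at the high dose, with a 95% confidence interval of -0.14 to 0.023. Per kilobase of exon, PFKP made up 52.4% ± 0.530 of the summed level of these 3 genes with vehicle and 60.6% ± 0.274 at the high dose, while PFKL went from 35.5% ± 0.147 to 27.8% ± 0.233. The PFKP share lay between 51.8% and 52.8% in the vehicle libraries and between 60.3% and 60.9% at the high dose.

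The 3 members of the PFKFB family, which make and break fructose 2,6-bisphosphate and so set the pace of phosphofructokinase, moved apart: PFKFB2 rose and PFKFB3 and PFKFB4 fell, and all 3 passed 1.5-fold at the high dose. Among all genes tested, 8.66% rose and 9.57% fell past 1.5-fold at that dose. PFKFB2 (ENSG00000123836, chromosome 1, 207034366 to 207081024, plus strand), the form best known from heart, had normalised counts of 334, 322 and 336 in the vehicle libraries, 349, 357 and 408 with 20 µg/mL, 542, 479 and 489 with 100 µg/mL and 1030.3, 1121 and 1079 with 500 µg/mL. Every library at the medium dose lay above every low-dose and vehicle library, and every high-dose library lay above those. Its log2 fold changes were 1.71 (SE 0.0834, adjusted p = 2.39e-91) at the high dose and 0.60 (SE 0.0877, adjusted p = 1.29e-10) at the medium dose, and the difference between the 2 doses was 1.10 (SE 0.0793, adjusted p = 3.50e-42). The medium-dose change of 1.52-fold fell just short of 1.5-fold without medium replicate 1 (1.46-fold) or vehicle replicate 2 (1.499-fold), and was 1.41-fold with library sizes set by total counts.

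PFKFB3 (ENSG00000170525, chromosome 10, 6144934 to 6254644, plus strand), the inducible form whose kinase activity far exceeds its phosphatase activity, had normalised counts of 1928, 1937 and 1881 in the vehicle libraries, 1832, 2012 and 1801 with 20 µg/mL, 1389.8, 1459.5 and 1441 with 100 µg/mL and 1056, 1046 and 1078 with 500 µg/mL. The medium-dose libraries lay below all vehicle libraries and the high-dose libraries below both, with the low-dose values spread around those of the vehicle. Log2 fold changes were -0.85 (SE 0.0524, adjusted p = 4.57e-58) at the high dose and -0.42 (SE 0.0509, adjusted p = 4.99e-15) at the medium dose. PFKFB4 (ENSG00000114268, chromosome 3, 48517684 to 48562015, minus strand), another form induced by HIF, had normalised counts of 600.5, 541 and 559 in the vehicle libraries, 616, 629 and 631 with 20 µg/mL, 445, 422 and 450.4 with 100 µg/mL and 298, 278 and 274 with 500 µg/mL. Its 3 low-dose values were above all vehicle values, yet the log2 fold change there was 0.14 (SE 0.0792, adjusted p = 0.406), short of the threshold. At the medium and high doses it fell, with log2 fold changes of -0.37 (SE 0.0821, adjusted p = 7.28e-05) and -1.002 (SE 0.0871, adjusted p = 1.92e-29). Within the family, per kilobase of exon, PFKFB2 went from 7.41% ± 0.213 of the sum with vehicle to 13.9% ± 1.00 with 100 µg/mL and 32.5% ± 1.16 with 500 µg/mL, and PFKFB3 from 71.4% ± 0.967 to 53.3% ± 0.803.

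**Figure D3:**
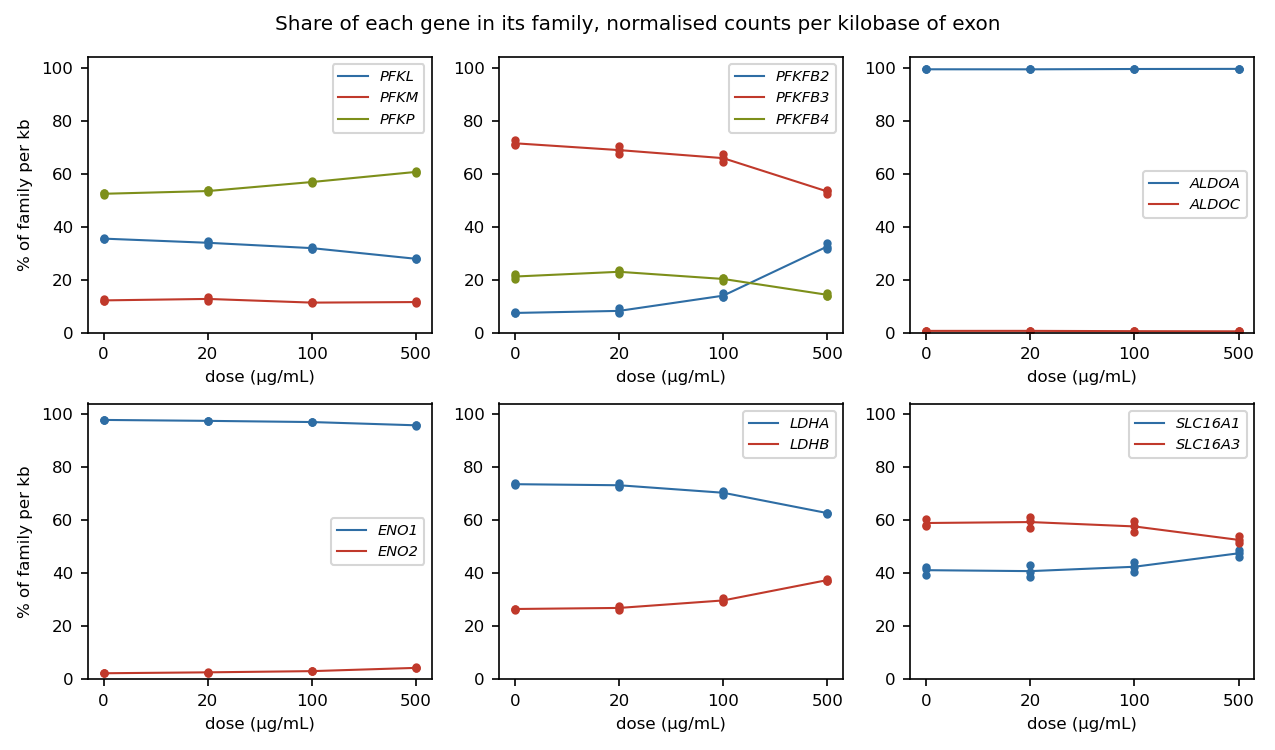
Share (%) of each gene in the summed normalised counts per kilobase of exon of its family, by dose (µg/mL), with points for the 3 libraries of a group and lines through the means. The PFKFB2 share stays at 7.41% to 8.19% up to the low dose and reaches 32.5% at the high dose, and the LDHA share falls from 73.6% to 62.6%.

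In lower glycolysis, which yields ATP and pyruvate, 5 of 6 genes fell and ENO2 rose, at both the medium and the high dose. Among all genes tested, 14.5% fell and 15.1% rose at the medium dose, and 22.6% and 23.9% at the high dose. The 5 genes that fell are among the most abundant members. Per kilobase of exon GAPDH had the highest level with vehicle (31454 normalised counts per kilobase), followed by ENO1 (10792). Their standard deviations of 694 and 101 did not bridge the gap. GAPDH, often used as a reference gene, went from 75363 ± 1663 to 58160.3 ± 2046 normalised counts, its log2 fold change being -0.37 (SE 0.0323, adjusted p = 9.78e-30). GAPDH shares 17.6% of its exon bases with a gene on the other strand, and the 65 annotated pseudogenes named for it held 0.0786% of its counts. PKM, the pyruvate kinase, and ENO1, the main enolase, fell by 0.38 and 0.44 on the log2 scale at the high dose (adjusted p = 4.59e-87 and adjusted p = 5.45e-69).

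PGK1 (ENSG00000102144, chromosome X, 77910739 to 78129295, plus strand), which makes the first ATP of the pathway and carries 3 motif matches in the stretch shown above, had normalised counts of 21207, 21088 and 21111 in the vehicle libraries, 21036, 20609 and 19587 with 20 µg/mL, 17557, 17969 and 17055 with 100 µg/mL and 13062, 13218 and 13073 with 500 µg/mL. The libraries of each higher dose lay wholly below those of the dose before. Log2 fold changes were -0.69 (SE 0.0267, adjusted p = 4.03e-144) at the high dose, -0.27 (SE 0.0265, adjusted p = 1.23e-22) at the medium dose and -0.050 (SE 0.0264, adjusted p = 0.374) at the low dose, where the threshold was missed. PGAM1 (ENSG00000171314, chromosome 10, 97426191 to 97433444, plus strand), the phosphoglycerate mutase, had normalised counts of 11315, 11182 and 11146 in the vehicle libraries, 11206, 10762 and 9742 with 20 µg/mL, 9089.9, 9350.4 and 8534 with 100 µg/mL and 6762, 7015 and 6569 with 500 µg/mL. Low replicate 3 was the lowest of its group, near the top of the medium-dose range. The log2 fold changes of PGAM1 were -0.73 (SE 0.0425, adjusted p = 7.20e-64) and -0.32 (SE 0.0422, adjusted p = 1.26e-12) at the high and medium doses.

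ENO2, the enolase known from neurons, rose at every dose, from 1039 ± 30.7 normalised counts with vehicle to 1218 ± 99.6, 1302 ± 34.5 and 1504 ± 45.3. The log2 fold changes were 0.23 (SE 0.0609, adjusted p = 0.00924), 0.33 (SE 0.0606, adjusted p = 1.04e-06) and 0.53 (SE 0.0599, adjusted p = 4.79e-18). Per kilobase of exon it made up 2.20% ± 0.0826 of the 2 enolases with vehicle and 4.23% ± 0.150 at the high dose. The low-dose call of ENO2 was lost without low replicate 3 or vehicle replicate 1. Over all 13 enzyme genes from GPI to PKM, 9 fell and 3 rose at the high dose with a median log2 fold change of -0.38. At the medium dose 8 fell and 2 rose, and at the low dose 2 rose. Among all genes tested, 22.6% fell and 23.9% rose at the high dose, and 14.5% and 15.1% at the medium dose. The shares at the low dose were 1.24% and 2.05%.

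All 5 genes of lactate and pyruvate handling fell at the high dose, beside 22.6% of all genes tested. LDHA (ENSG00000134333, chromosome 11, 18394560 to 18408425, plus strand), the lactate dehydrogenase subunit that favours lactate formation, had normalised counts of 38934, 37224 and 37732 in the vehicle libraries, 35562, 36744 and 37990.1 with 20 µg/mL, 29895, 29769.6 and 30031 with 100 µg/mL and 19573, 19162 and 19004 with 500 µg/mL. The low-dose values overlapped those of the vehicle, the medium-dose libraries lay wholly below both, and the high-dose libraries lay lower again. With 500 µg/mL the log2 fold change was -0.98 (SE 0.0251, adjusted p below what the software can store), a 1.97-fold decrease, and with 100 µg/mL -0.34 (SE 0.0248, adjusted p = 1.16e-41). LDHB, the subunit that favours pyruvate formation, fell as well, with a log2 fold change of -0.25 (SE 0.0334, adjusted p = 5.53e-13). LDHA made up 73.6% ± 0.228 of the 2 subunits per kilobase of exon with vehicle, 70.3% ± 0.849 with 100 µg/mL and 62.6% ± 0.282 with 500 µg/mL.

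Of the lactate transporters, SLC16A3, the exporter of glycolytic cells, went from 6885 ± 354 to 4853 ± 199.8 normalised counts, with a log2 fold change of -0.50 (SE 0.0745, adjusted p = 7.56e-11). SLC16A1, the more widely expressed transporter, fell by 0.13 on the log2 scale (adjusted p = 0.000416). PDK1, the kinase that holds pyruvate dehydrogenase inactive, went from 634 ± 41.3 to 448 ± 15.98 normalised counts, with log2 fold changes of -0.50 (SE 0.0850, adjusted p = 1.86e-08) and -0.30 (SE 0.0839, adjusted p = 0.00231) at the high and medium doses. The medium-dose calls of PDK1 and LDHB (adjusted p = 0.00361) were lost without medium replicate 2, where the log2 fold changes were -0.25 and -0.098 (adjusted p = 0.0630 and 0.0649). At the medium dose SLC16A1 and SLC16A3 had log2 fold changes of -0.048 and -0.12, neither past the threshold.

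Among the oxygen-sensing members, the HIF alpha genes HIF1A and EPAS1 rose while the hydroxylase genes EGLN1 and EGLN3 fell at the medium and high doses. The hydroxylase gene EGLN2, which is not a member, rose at the high dose and is given below. HIF1A rose from 23498 ± 588 normalised counts with vehicle to 26691 ± 459 with 100 µg/mL and 29467 ± 466 with 500 µg/mL, with log2 fold changes of 0.18 (SE 0.0261, adjusted p = 4.08e-11) and 0.33 (SE 0.0260, adjusted p = 6.33e-35). EPAS1, which encodes HIF-2 alpha, rose from 5186 ± 81.5 to 6104 ± 89.2 and 7095 ± 181, with log2 fold changes of 0.24 (SE 0.0295, adjusted p = 5.28e-14) and 0.45 (SE 0.0292, adjusted p = 1.46e-52). HIF alpha protein is set mainly by its destruction, and protein was not measured.

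EGLN1 (ENSG00000135766, chromosome 1, 231363751 to 231422287, minus strand), the main HIF prolyl hydroxylase, had normalised counts of 1397, 1378 and 1342 in the vehicle libraries, 1329, 1334 and 1430.4 with 20 µg/mL, 1083, 1128 and 1150.5 with 100 µg/mL and 812, 724 and 764 with 500 µg/mL. The low-dose values overlapped the vehicle values, and the medium-dose and high-dose ranges lay below in that order without overlap. Log2 fold changes were -0.84 (SE 0.0593, adjusted p = 1.43e-44) at the high dose and -0.29 (SE 0.0569, adjusted p = 3.56e-06) at the medium dose. EGLN3 (ENSG00000129521, chromosome 14, 33924227 to 34462774, minus strand), a hydroxylase that HIF itself induces, had the lowest level per kilobase of annotated exon of all members in every group. With the longest transcript as length EGLN3 and PDK1 lay together with vehicle, at 44.95 and 45.02 normalised counts per kilobase. Its normalised counts were 132, 121 and 131 in the vehicle libraries, 121, 141 and 139 with 20 µg/mL, 75.3, 80.2 and 76.3 with 100 µg/mL and 17.4, 21.6 and 18.7 with 500 µg/mL. The low-dose values overlapped those of the vehicle, the medium-dose values lay below both and the high-dose values lay far below the rest. Against vehicle, 500 µg/mL gave a log2 fold change of -2.72 (SE 0.245, adjusted p = 1.42e-27), a 6.61-fold decrease, the largest change of any member. At the medium dose it was -0.73 (SE 0.183, adjusted p = 0.000553), and between the high and medium doses -1.998 (SE 0.252, adjusted p = 3.13e-14). At the low dose EGLN3 was among the 3 members without an adjusted p, and its log2 fold change was 0.062 (SE 0.173). The 1 pseudogene named for EGLN3 held at most 6.67% of its counts in any library.

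**Figure D4:**
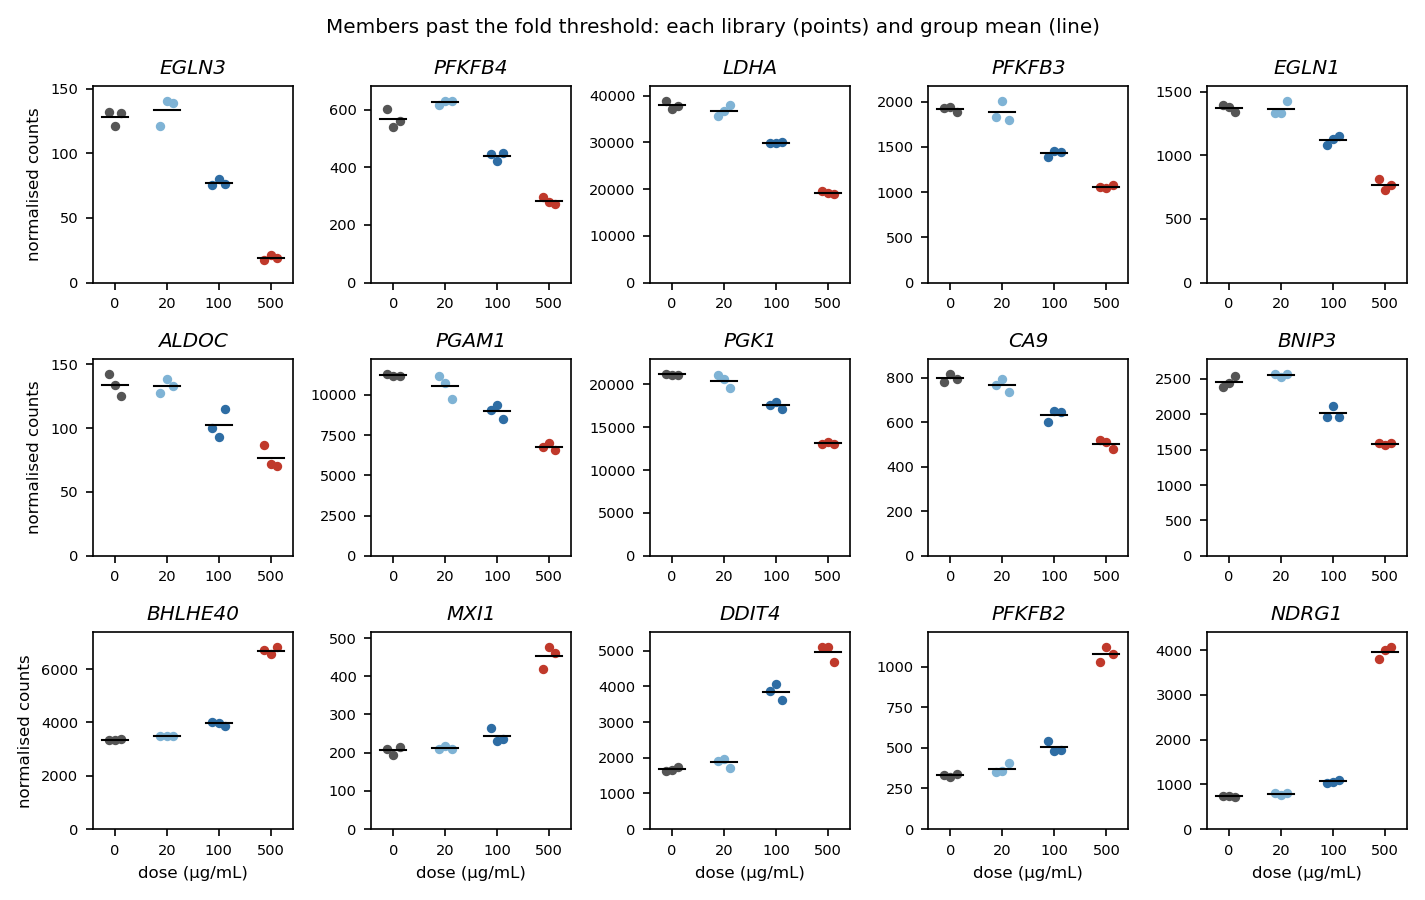
Normalised counts (linear axes from 0) by dose (µg/mL) of the 15 members past 1.5-fold at any dose, with points for single libraries and lines for group means, ordered by log2 fold change at the high dose. The first 10 panels, from EGLN3 to BNIP3, fall toward the high dose and the last 5 rise, with DDIT4 the only rising panel in which the step from vehicle to the medium dose exceeds the step that follows.

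Of the 12 further HIF targets, 6 rose, 4 of them past 1.5-fold, and 3 fell at the high dose, CA9 and BNIP3 past 1.5-fold. Among all genes tested, 23.9% rose and 22.6% fell, and 8.66% and 9.57% did so past 1.5-fold. Among the pH regulators CA9 fell, whereas a rise of CA12 with 100 µg/mL did not hold under every setting. CA9 (ENSG00000107159, chromosome 9, 35673928 to 35681159, plus strand), the carbonic anhydrase used as a marker of hypoxia in tumours, had normalised counts of 781, 818 and 795 in the vehicle libraries, 767, 796 and 738 with 20 µg/mL, 603, 650.5 and 646 with 100 µg/mL and 521, 511 and 479.8 with 500 µg/mL. All medium-dose values lay below all vehicle values and all high-dose values below those. The log2 fold changes were -0.67 (SE 0.0719, adjusted p = 2.04e-19) and -0.33 (SE 0.0700, adjusted p = 2.06e-05) at the high and medium doses. CA9 shares 35.7% of its exon bases with ARHGEF39 on the other strand, so its counts are uncertain. CA12, a second membrane carbonic anhydrase, went from 1285 ± 35.3 with vehicle to 1433 ± 52.2 with 100 µg/mL and 1251 ± 60.6 with 500 µg/mL. The medium-dose log2 fold change was 0.16 (SE 0.0535, adjusted p = 0.0141) and the high-dose value was -0.041 with a 95% confidence interval of -0.15 to 0.065, and the 2 doses differed by -0.20 (SE 0.0537, adjusted p = 0.000833). The medium-dose call of CA12 was lost without medium replicate 2 or 3 or vehicle replicate 2 or 3 (log2 fold change 0.13 to 0.17, adjusted p 0.0504 to 0.144). With library sizes set by total counts the value was 0.047 (adjusted p = 0.547), and the high-dose value became -0.15 (adjusted p = 0.0104).

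BNIP3 (ENSG00000176171, chromosome 10, 131967684 to 131981967, minus strand), a mitophagy receptor, had normalised counts of 2392, 2439.9 and 2546 in the vehicle libraries, 2572, 2522 and 2565 with 20 µg/mL, 1965, 2123 and 1962 with 100 µg/mL and 1596, 1559.5 and 1595 with 500 µg/mL. The low-dose values overlapped the vehicle values, and the medium-dose and high-dose libraries lay below both. Log2 fold changes were -0.64 (SE 0.0448, adjusted p = 2.42e-44) and -0.28 (SE 0.0437, adjusted p = 1.53e-09) at the high and medium doses. The 44 pseudogenes named for BNIP3 held 0.957% of its counts. Its relative BNIP3L fell at the medium dose, with a log2 fold change of -0.14 (SE 0.0387, adjusted p = 0.00173), and at the high dose had -0.066 with an interval of -0.14 to 0.0093. The difference of BNIP3L between the 2 doses was 0.075 (SE 0.0389, adjusted p = 0.115), which missed the threshold. The procollagen hydroxylases also parted: P4HA1 fell and P4HA2 rose at the high dose, with log2 fold changes of -0.49 (SE 0.0394, adjusted p = 1.39e-34) and 0.27 (SE 0.0428, adjusted p = 1.28e-09). P4HA1 also fell at the medium dose, by 0.26 on the log2 scale (adjusted p = 1.10e-09).

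NDRG1 (ENSG00000104419, chromosome 8, 133237175 to 133302022, minus strand), a stress-responsive gene that HIF induces, rose most. Its normalised counts were 745, 732 and 725 in the vehicle libraries, 800.2, 762 and 817 with 20 µg/mL, 1039.7, 1056 and 1098 with 100 µg/mL and 3811, 4012 and 4069.6 with 500 µg/mL. The low-dose libraries already lay above all vehicle libraries, but the log2 fold change there of 0.11 (SE 0.0580, adjusted p = 0.367) missed the threshold. It was 0.54 (SE 0.0560, adjusted p = 4.40e-20) at the medium dose and 2.43 (SE 0.0515, adjusted p below what the software can store) at the high dose, a 5.40-fold increase. The step from the medium to the high dose alone was 1.90 (SE 0.0488). Per kilobase of exon NDRG1 ranked 30 of 37 members with vehicle and 23 of 37 at the high dose.

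DDIT4 (ENSG00000168209, chromosome 10, 72273919 to 72276036, plus strand), an inhibitor of mTORC1 induced by HIF and also by ATF4, had normalised counts of 1638, 1644 and 1738 in the vehicle libraries, 1922, 1977 and 1709 with 20 µg/mL, 3863, 4058 and 3612 with 100 µg/mL and 5104, 5099 and 4679.5 with 500 µg/mL. Unlike the other members that rose past 1.5-fold, it had made most of its change at the medium dose: log2 fold changes were 1.20 (SE 0.0548, adjusted p = 5.73e-104) there and 1.57 (SE 0.0544, adjusted p = 6.12e-181) at the high dose, and the step between these doses was 0.37 (SE 0.0523, adjusted p = 2.04e-11). The low-dose value was 0.16 (SE 0.0565, adjusted p = 0.0948). It passed without low replicate 3, at a log2 fold change of 0.22. In the same libraries the 6 reference genes of the ATF4 stress response (ATF4, DDIT3, TRIB3, CHAC1, ASNS, SESN2) rose at all 3 doses, their medians on the log2 scale being 0.38, 1.96 and 2.90. Of these, TRIB3 reached 4.31, DDIT3 3.91 and CHAC1 2.94 at the high dose, and 31.6% of the exon bases of DDIT3 overlap a gene on the other strand. Their part in the values of DDIT4 and the other members was not tested.

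BHLHE40 (ENSG00000134107, chromosome 3, 4979437 to 4985323, plus strand), a transcriptional repressor that HIF induces, had normalised counts of 3324, 3337 and 3371 in the vehicle libraries, 3504, 3487 and 3491 with 20 µg/mL, 4019, 3987 and 3874 with 100 µg/mL and 6699, 6559.7 and 6828 with 500 µg/mL. Every low-dose library exceeded every vehicle library by a little, and the higher doses lay above without overlap. Log2 fold changes were 1.002 (SE 0.0307, adjusted p = 1.27e-231) at the high dose, 0.24 (SE 0.0319, adjusted p = 6.52e-13) at the medium dose and 0.063 (SE 0.0322, adjusted p = 0.349) at the low dose. BHLHE40 shares 12.8% of its exon bases with BHLHE40-AS1 on the other strand. MXI1 (ENSG00000119950, chromosome 10, 110207605 to 110287365, plus strand), an antagonist of MYC, had normalised counts of 210.1, 194 and 214 in the vehicle libraries, 209, 217 and 209 with 20 µg/mL, 264, 230.2 and 235 with 100 µg/mL and 420.2, 477 and 462 with 500 µg/mL. Its high-dose values stood apart from all others, and the log2 fold changes were 1.14 (SE 0.109, adjusted p = 1.38e-24) at the high dose and 0.23 (SE 0.115, adjusted p = 0.112) at the medium dose.

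KDM3A, a histone demethylase induced by HIF, was lower at the medium dose and higher at the high dose, and was the only member called in opposite directions at these 2 doses in the fit over all libraries. Its normalised counts were 764, 809.5 and 757 in the vehicle libraries, 768, 757 and 770.1 with 20 µg/mL, 700.1, 699.9 and 653 with 100 µg/mL and 996, 1066 and 1015 with 500 µg/mL. All medium-dose values lay below, and all high-dose values above, those of the vehicle and low-dose libraries. Log2 fold changes were -0.19 (SE 0.0662, adjusted p = 0.0210) and 0.40 (SE 0.0635, adjusted p = 1.61e-09), and the difference between the 2 doses was 0.59 (SE 0.0646, adjusted p = 2.26e-18). The medium-dose call was lost without medium replicate 2 or 3 or vehicle replicate 1 or 2 (log2 fold change -0.20 to -0.15, adjusted p 0.0502 to 0.161), and with only the vehicle and medium-dose libraries in the fit (-0.18, adjusted p = 0.0581). ANKRD37, an ankyrin-repeat gene induced by HIF, had 50.2 to 90.0 expected counts per library. It had a log2 fold change of -0.26 at the high dose with an interval of -0.74 to 0.22, so a change of this size was not detectable at this depth. ANKRD37 shares 40.4% of its exon bases with UFSP2.

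The 4 members that rose at the low dose were PFKP, ENO2, HIF1A and EPAS1, with log2 fold changes of 0.12 (SE 0.0324, adjusted p = 0.0111), 0.23 (SE 0.0609, adjusted p = 0.00924), 0.090 (SE 0.0261, adjusted p = 0.0236) and 0.11 (SE 0.0297, adjusted p = 0.00696). These calls depended on single libraries. PFKP missed the threshold without low replicate 2 or 3 or vehicle replicate 1 or 2 (adjusted p 0.0638 to 0.133), and ENO2 without low replicate 3 or vehicle replicate 1 (0.229 and 0.123). HIF1A missed it without low replicate 3 or vehicle replicate 2 or 3 (0.0826 to 0.262), and EPAS1 without low replicate 1 or 3 or vehicle replicate 1 (0.0614 to 0.132). With library sizes set by total counts PFKP, HIF1A and EPAS1 missed it (0.0862 to 0.246), and HIF1A also missed it in edgeR (0.134), with independent filtering off (0.0757) and with only the 2 groups compared (0.0664). Between 1 and 4 members passed when 1 library was left out. Their log2 fold changes stayed above 0 in each of these cases, the lowest being 0.053 for HIF1A with total counts.

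Between the high and medium doses, 34 of 37 members differed, and PFKL, BNIP3L and ANKRD37 did not pass. Among all genes tested, 19.8% were lower and 21.1% higher at the high dose. 4 of the 34 calls lay close to the threshold. For ALDOC (adjusted p = 0.0393), PDK1 (0.0469), SLC16A1 (0.0402) and PFKM (0.0351), the call was lost on leaving out any 1 of 10, 11, 12 and 6 libraries. For SLC16A1 these were all 12 libraries, for PDK1 all but medium replicate 2, for ALDOC all but high replicate 1 and medium replicate 2, and for PFKM the 3 high-dose libraries, medium replicates 1 and 3 and vehicle replicate 2. Without those libraries the adjusted p ran from 0.0544 to 0.222 for ALDOC, 0.0514 to 0.204 for PDK1, 0.0533 to 0.154 for SLC16A1 and 0.0530 to 0.141 for PFKM, while the log2 fold changes stayed between -0.45 and -0.34, -0.23 and -0.16, -0.095 and -0.072, and 0.14 and 0.18. These 4 also missed the threshold with independent filtering off (adjusted p 0.0653 to 0.0873) and with only the medium-dose and high-dose libraries in the fit (0.0569 to 0.102).

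Other genes of the same pathways were listed beside the members. Of 26 other HIF targets, 16 rose (61.5%) and 6 fell (23.1%) at the high dose, with a median log2 fold change of 0.20. Of all genes tested, 23.9% rose and 22.6% fell there. At the medium dose 8 rose and 7 fell, with 15.1% and 14.5% of all genes tested doing so. At the low dose 1 of 23 tested rose, beside 2.05% of all genes tested. PPFIA4, a liprin scaffold protein, had 198 ± 17.6 normalised counts with vehicle and 51.0 ± 8.47 with 500 µg/mL, a log2 difference of -1.95 (SE 0.173, adjusted p = 2.06e-28). ADM, the vasodilator peptide adrenomedullin, rose from 207 ± 11.7 to 526 ± 16.4, on the log2 scale by 1.35 (SE 0.107, adjusted p = 4.71e-35). SLC2A3, a high-affinity glucose transporter, had a log2 fold change of 1.20 (SE 0.0586, adjusted p = 3.65e-91).

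**Figure D5:**
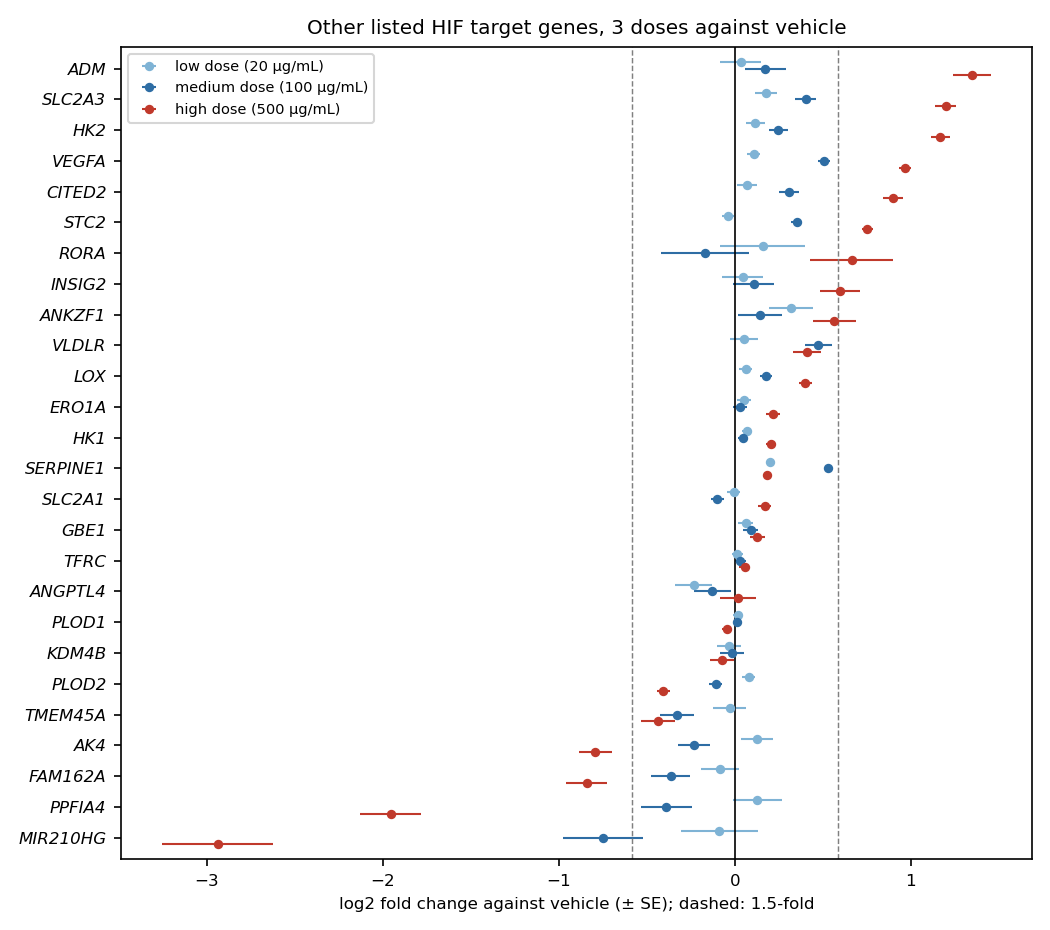
Log2 fold change against vehicle of 26 further HIF target genes that are not members, ordered by the high dose, with bars of 1 SE and dashed lines at 1.5-fold. At the high dose the values run from -2.94 for MIR210HG at the bottom to 1.35 for ADM at the top, so genes of this list lie past 1.5-fold on both sides.

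Of 12 further genes of the oxygen-sensing machinery, 11 were tested at the high dose. Of these 2 rose (18.2%) and 4 fell (36.4%), beside 23.9% and 22.6% of all genes tested. At an adjusted p under 0.05 the largest changes among these were those of RBX1, a subunit of the ligase that marks HIF alpha for destruction, at -0.47 (SE 0.0753, adjusted p = 2.60e-09) on the log2 scale, of the hydroxylase EGLN2 at 0.36 (SE 0.0648, adjusted p = 1.08e-07), and of ARNT2, a partner of the alpha subunits, at -0.29 (SE 0.123, adjusted p = 0.0381). Of 29 other genes around pyruvate and triose metabolism, 22 were tested at the high dose. Of these 6 rose (27.3%) and 8 fell (36.4%), beside the same shares of all genes tested. GOT1, the cytosolic aspartate aminotransferase, rose from 672 ± 13.7 to 2269 ± 101 normalised counts, on the log2 scale by 1.76 (SE 0.0607, adjusted p = 7.48e-182). PDP1, the phosphatase that reactivates pyruvate dehydrogenase, rose by 0.74 (SE 0.0368, adjusted p = 5.97e-88), and PDK3, a kinase that inactivates it, had a log2 fold change of -0.86 (SE 0.121, adjusted p = 7.58e-12).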

How the data were processed

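RNA from SW1783 cells was made into directional mRNA libraries and sequenced as paired reads. The deposited table holds expected counts per gene, which the authors made with RSEM (estimated counts that need not be whole, not normalized). The submitters' processing notes name FastQC 0.11.9, Trim Galore 0.6.5, STAR 2.7.3a, RSEM 1.3.3 and GRCh38; whether counting used strand was not given in the sources used here. All 12 libraries were used, grouped by their labels.

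Expected counts, 8.75% of which were not whole, were rounded. DESeq2 1.42.0 (R 4.3.3) fitted all 12 libraries with group as the only term, and two-sided Wald p-values were adjusted over all genes tested, with independent filtering at 0.05. Each library's size factor from DESeq2 scaled its counts into normalised counts. A gene rose or fell at an adjusted p under 0.05, and passed the fold limit at more than 1.5-fold in addition. Levels of different genes were compared only per kilobase of annotated exon. Symbols, coordinates and overlaps came from GENCODE 44 (GRCh38), which held 56558 of 60675 identifiers and 99.85% of counts, and promoters from RefSeq.

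Members and lists were chosen with earlier results of these data known. Values in every library are given for members past the fold limit at any dose, and for KDM3A, chosen after its values were seen. Of each other list at most 3 genes are named: those with the largest change at the high dose among genes past the threshold whose normalised counts averaged 100 or more over all libraries. Replicates of a group differed by more than sampling noise (chi-square per degree of freedom 1.99 to 3.55), so no library was counted as a repeat of another. Results of 1 further gene list are not reported here. Alternatives were TMM and total-count size factors, edgeR 4.0.16, other filters, only the groups compared, a replicate block and leaving out each library.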

Additional observations from a re-analysis of the deposited data

How the results depend on the processing

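Over 19 alternatives, 33 of 37 members stayed on their side of the threshold in all of them with 500 µg/mL, 28 with 100 µg/mL, 27 with 20 µg/mL and 32 between the high and medium doses. The sign of the log2 fold change changed under at least 1 alternative for 1, 4, 15 and 0 members, so that 33, 25, 12 and 32 kept both. Total-count size factors moved the median log2 fold change of all genes from -0.0096 to -0.12 at the high dose and from -0.0005 to -0.11 at the medium dose. The members' medians moved from -0.28 to -0.40 and from -0.13 to -0.25. Total-count scaling shifts all genes of a comparison by nearly the same step. The gap between members and all genes could therefore hardly change and is no test of the scaling. With that scaling 14 members were lower past 1.5-fold at the high dose (10 otherwise), with 5 higher in both, 1 member was higher past 1.5-fold at the medium dose (2 otherwise), and at the low dose 1 rose and 5 fell (4 and 0 otherwise). PFKL at the medium dose turned from 0.0007 to -0.1105 (adjusted p = 0.0287), a step that matches the shift of all genes, CA12 lost its call there, and at the high dose PFKM lost its call while PFKL (-0.17), CA12 (-0.15) and BNIP3L (-0.18) gained one. SLC16A1 (-0.16), SLC16A3 (-0.23) and ALDOC (-0.49) gained a call with 100 µg/mL. Leaving out 1 library at a time left 1 to 4 members changed at the low dose, all of them higher, and 1 to 2 members higher past 1.5-fold at the medium dose. At the low dose 1 member passed without low replicate 3 or vehicle replicate 1, and 2 without vehicle replicate 2. The edgeR quasi-likelihood test called 33, 31, 3 and 35 members in the 4 comparisons, beside 33, 29, 4 and 34 in DESeq2.

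The labels number the replicates of each group, but nothing ties a number to a shared culture or day. Deviations from group means correlated between same-numbered libraries at -0.118 to 0.221, with 5 of 18 pairs over 0.1, and between other libraries at -0.158 to 0.0981, so the numbers were not taken as pairs. All 3 same-numbered pairs of the medium and low doses, which were not compared, lay over 0.1 (0.124 to 0.193). The 3 same-numbered pairs of the high and medium doses, which were compared, ran from 0.0355 to 0.221, with 1 over 0.1. No same-numbered pair with a vehicle library lay over 0.1. With the replicate block 33, 28, 4 and 30 members passed. It ended the medium-dose call of KDM3A (adjusted p = 0.0573) and the calls of ALDOC, PDK1, SLC16A1 and PFKM between the high and medium doses (0.0772 to 0.0894).

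With the longest annotated transcript as gene length, shares at vehicle and the high dose were 61.7% and 69.1% for PFKP, 1.64% and 3.17% for ENO2, 79.4% and 69.9% for LDHA, and 65.4% and 59.3% for SLC16A3, beside 52.4% and 60.6%, 2.20% and 4.23%, 73.6% and 62.6%, and 58.9% and 52.5% with all exons. In 250 bases before the start alone, either motif occurred in 43.2% of all windows and 66.1% of member windows. Groups of 3 limit every test to the spread between 3 libraries. At the low dose independent filtering left out genes with a mean under 263.4 normalised counts, so ALDOC, EGLN3 and ANKRD37 had no adjusted p.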
